A study of Mus musculus with 19 samples.

Results

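Ephrins and Eph receptors are the cell-surface ligands and receptor tyrosine kinases that steer growing axons by contact. The 10 genes described here were chosen by name, as members of this family linked to vomeronasal axon targeting. They are 5 ephrins (Efna1, Efna3, Efna5, Efnb1 and Efnb2) and 5 Eph receptors (Epha4, Epha5, Epha7, Ephb1 and Ephb2), out of 22 ephrin and Eph genes and 35596 genes in all.

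The libraries hold polyA+ RNA of whole vomeronasal organs (VNOs) from female mice at postnatal day 21. Smad4, through which both TGFβ and BMP signals reach the nucleus, was deleted by Cre in either of 2 mouse lines. The AP-2εCre driver is active in basal sensory neurons (VSNs) while they are still immature, and OMPCre is active once apical and basal VSNs have matured. The question was which genes change when Smad4 is lost at these stages.

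Each line had 3 groups of 3 libraries, 18 libraries in all. In the conditional knockouts (cKO) 1 Cre allele, AP-2εCre+/- or OMPCre+/-, was joined with Smad4 flox/flox. The heterozygous controls had the Cre allele alone, AP-2εCre+/- or OMPCre+/-, and the flox controls had Smad4 flox/flox alone, a group whose sample labels read wild type. All 6 groups thus carried either a Cre allele, floxed Smad4 alleles or both. The sample labels also name immature basal or mature apical and basal VSNs as the cell type, yet the tissue was the whole organ. One further AP-2εCre library has the title of a heterozygote and the genotype of a cKO, and it entered no comparison.

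Estimated counts per library ran from 43371478 to 134008707. No marker gene of the 14 cell type lists was at 3 counts or fewer. The 6 fibroblast genes summed to between 16440 and 40460 counts per 1000000 counts (CPM), against 736 to 1142 CPM for the 6 genes of mature VSNs, so RNA of other cells is abundant. Fewer cells of a type and less RNA per cell cannot be told apart in such tissue. Smad4 had 33.8 to 66.7 CPM in AP-2εCre cKO and 39.5 to 80.8 CPM in the controls of that line, ranges that overlap. It had 54.6 to 62.4 CPM in OMPCre cKO and 64.9 to 83.8 CPM in the controls, which do not overlap. These counts cover the whole gene, whereas the paper states that loxP sites flank an exon of it, so they do not measure the deletion. With a probe for that exon and with Smad4 immunostaining, the paper found Smad4 lost from most traced basal VSNs of AP-2εCre cKO. In AP-2εCre heterozygotes Tfap2e, the gene that encodes AP-2ε, had 7.50 ± 1.83 CPM (SD, n = 3) against 15.3 ± 1.29 CPM in flox controls. In OMPCre heterozygotes Omp, the marker of mature olfactory and vomeronasal neurons, had 237 ± 11.7 CPM against 397 ± 85.3 CPM.

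In this family the signal runs both ways. An ephrin on one cell activates the Eph kinase on its neighbour, which is called forward signalling, and the ephrin itself can signal back into its own cell, which is called reverse signalling. Ephrin-A ligands are held in the membrane by a lipid anchor and bind mainly EphA receptors. Ephrin-B ligands cross the membrane and bind mainly EphB receptors, and EphA4 accepts ligands of both classes. Contact often makes a growth cone collapse and turn away, although attraction and adhesion also occur. In the vomeronasal system, ephrin-A5 is carried by the sensory axons while EphA receptors are graded in the accessory olfactory bulb, their target.

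Among the 10 genes, the 4 with the highest TPM were ligands. Levels between genes are given in TPM, transcripts per 1000000 transcripts, which corrects for transcript length. In the 12 control libraries Efna3 had 38.3 ± 9.54 TPM (SD, n = 12) and was higher than Efna5 (24.2 ± 4.63 TPM) in 11 of 12 libraries. Efna5 in turn was above Efnb2 (12.9 ± 3.87 TPM) in 12 of 12 libraries. Efnb1 followed with 11.1 ± 3.03 TPM, Epha5 with 8.51 ± 2.86 TPM and Efna1 with 8.18 ± 1.63 TPM. The other receptors were lower, with Ephb2 at 6.06 ± 2.13 TPM, Epha4 at 4.65 ± 1.36 TPM and Epha7 at 3.48 ± 0.80 TPM. Ephb1 was lowest of the 10 with 1.01 ± 0.34 TPM.

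Of the 9 pairs of neighbours in this order, 7 differed in a two-sided exact sign-flip permutation test over the 12 libraries with Benjamini-Hochberg adjustment over the 9 pairs. Efnb2 and Efnb1 could not be separated, with Efnb2 higher in 9 of 12 libraries (adjusted exact p = 0.0835). Epha5 and Efna1 could not be separated either, with Epha5 higher in 5 of 12 libraries (adjusted exact p = 0.929). The smallest p among the pairs was 0.00049, the lowest that 4096 sign flips allow, reached for Efna5 over Efnb2 and for Epha7 over Ephb1. With CPM divided by the effective length of the transcript with most counts, Efna3 was again the highest with 32.0 ± 5.37 CPM per kilobase and Efna5 the next with 23.1 ± 2.10, whereas the receptor Epha5 (10.66 ± 1.94) took the fourth place and Efnb2 (10.15 ± 1.69) the fifth.

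**Figure D1:**
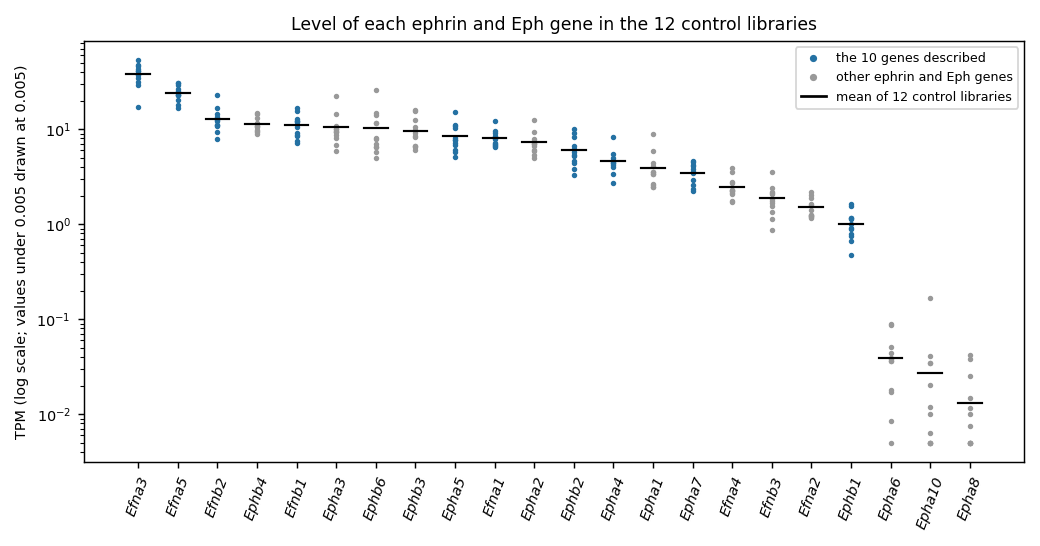
Level of each of the 22 ephrin and Eph genes in the 12 control libraries, in TPM on a log scale, with 1 point per library and a bar at the mean. Blue points mark the 10 genes described, which run from Efna3 at 38.3 TPM down to Ephb1 at 1.01 TPM, and grey points mark the other 12 genes, of which Epha6, Epha8 and Epha10 lie below 0.1 TPM on average.

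By class, the 3 ephrin-A genes of the set summed to 70.7 ± 12.7 TPM in controls and the 2 ephrin-B genes to 24.02 ± 6.26 TPM. The 3 EphA genes summed to 16.6 ± 4.48 TPM and the 2 EphB genes to 7.08 ± 2.28 TPM. The set leaves out receptors that were as abundant as its own. Over the whole family the 9 EphA genes summed to 38.4 ± 10.8 TPM and the 5 EphB genes to 38.4 ± 12.5 TPM. Ephb4 (11.3 ± 1.96 TPM), Epha3 (10.5 ± 4.34 TPM), Ephb6 (10.4 ± 5.97 TPM) and Ephb3 (9.67 ± 3.41 TPM) had the highest receptor TPM. In CPM per kilobase Ephb4 (12.87 ± 0.97) and Epha3 (11.96 ± 2.79) were again the highest receptors, but Epha5 and Epha2 (8.16 ± 1.39) stood above Ephb3 (7.83 ± 1.064), and Ephb6 had 4.10 ± 1.48. Epha6, whose protein is graded in the accessory olfactory bulb, was at 0.039 ± 0.027 TPM in the VNO.

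In TPM, the sums of both ligand classes lay above all 6 controls in AP-2εCre cKO, while those of both receptor classes overlapped. The 3 ephrin-A genes summed to between 87.5 and 107 TPM in cKO and between 45.05 and 80.05 TPM in controls. The 2 ephrin-B genes summed to between 25.4 and 36.2 TPM in cKO and between 19.7 and 23.8 TPM in controls. In the OMPCre line both sums overlapped between cKO (67.0 to 79.7 and 24.6 to 29.7 TPM) and controls (61.0 to 95.3 and 16.5 to 39.6 TPM). In the AP-2εCre line the 3 EphA genes summed to between 16.03 and 22.7 TPM in cKO and between 13.4 and 19.2 TPM in controls, and the 2 EphB genes to between 8.17 and 14.9 TPM and between 5.26 and 9.30 TPM. These sums were noted after the values were seen and were not tested. How often genes or sums are free of overlap in TPM was not computed, and for single genes in CPM it was 5.06%. The 10 genes with most counts in each library took 16.8% to 21.4% of counts in these cKO and 21.1% to 32.3% in the controls. The part of this in the sums was not tested. TPM holds no correction for the makeup of the rest of the library, and it gives short transcript models more weight. The comparisons below use counts with TMM scaling, on which no single ligand was free of overlap.

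None of the 10 genes passed the test when Smad4 was removed in either line. For AP-2εCre, edgeR's quasi-likelihood test set 3 cKO libraries against 6 controls, with p adjusted over all genes. It called 0 of the 10 genes, beside 0.0378% of all genes tested. At an unadjusted p under 0.05 it marked 2 of the 10, Efna3 higher and Epha7 lower, beside 10.2% of all genes. DESeq2 called 0 of the 10, beside 1.24% of all genes, and marked 2 at an unadjusted p under 0.05, beside 9.01%. The median log2 fold change was 0.13 over the 10 genes and 0.0030 over all genes. The 95% confidence intervals of the single folds reached from 0.70 at the lowest to 1.66 at the highest.

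For OMPCre the same test called 0 of the 10 genes, beside 0.0% of all genes. It marked 1 at an unadjusted p under 0.05, Ephb1, which was lower, beside 3.95% of all genes, and DESeq2 called 0, beside 0.183%, and marked 1, beside 3.8%. The median log2 fold change of the 10 genes was 0.018 and that of all genes -0.0046. The intervals reached from 0.51-fold to 1.69-fold. Over both lines together edgeR called 0 of the 10 genes beside 0.117% of all genes, and at an unadjusted p under 0.05 it marked 1, Efna3, beside 8.8% of all genes. DESeq2 called 0 there, beside 0.392%, and marked 1, beside 7.35%. The fit over both lines shares its libraries with the separate fits. In none of the 3 comparisons did all cKO libraries of a gene lie on the same side of all controls, which 5.06%, 2.36% and 0.139% of all genes did.

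**Figure D2:**
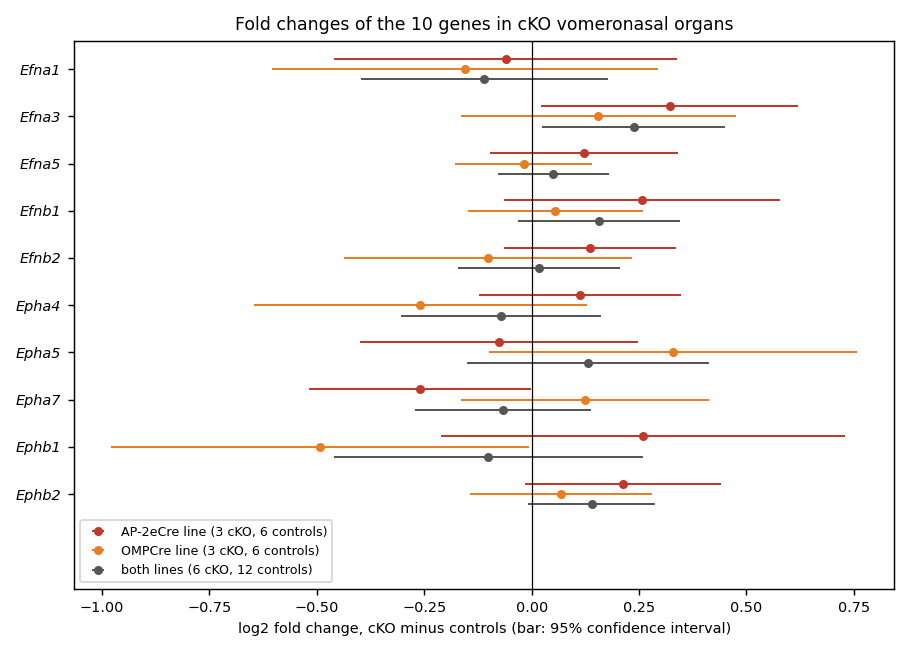
Log2 fold change of each of the 10 genes in cKO against control VNOs, in the AP-2εCre line (red), the OMPCre line (orange) and over both lines (grey), with bars for the 95% confidence interval of edgeR's fit. Intervals that leave out 0 belong to Efna3 and Epha7 in the AP-2εCre line, Ephb1 in the OMPCre line and Efna3 over both lines, and none of these passed the adjustment over all genes.

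Summed levels of several marker lists were apart between cKO and control organs, most of them in the AP-2εCre line, and these values stand beside all results of the 2 lines. In that line the 7 gland genes summed to between 75380 and 114100 CPM in cKO and between 122400 and 247900 CPM in controls. The 6 sustentacular genes ran from 1079 to 1816 CPM against 1761 to 4611 CPM, which overlap, and the 5 genes of motile cilia from 341 to 512 CPM against 533 to 699 CPM. The 4 genes of apical neurons ran from 1041 to 1074 CPM in cKO and from 797 to 954 CPM in controls, and the 6 immune genes from 176 to 185 CPM and from 136 to 171 CPM. The 6 genes of all mature neurons ran from 1022 to 1142 CPM in cKO and from 750.5 to 1021 CPM in controls, with 5 of 6 fold changes above 0 (median log2 0.19) and 1 gene higher and 1 lower at an unadjusted p under 0.05. Sums overlapped for the 8 genes of immature neurons and progenitors (782 to 1066 against 620 to 892 CPM) and the 7 of basal neurons (520 to 669 against 398 to 877 CPM). No gene of these lists passed the adjusted test. At an unadjusted p under 0.05, 5 of 7 gland genes, 2 of 6 sustentacular genes, 3 of 5 cilia genes and 2 of 7 basal genes were lower. At the same limit 3 of 4 apical, 3 of 6 immune and 2 of 8 immature neuron and progenitor genes were higher, beside 10.2% of all genes in either direction. The fold change was above 0 for all 8 immature genes (median log2 0.36) and below 0 for 6 of 7 basal genes. The basal genes include Tfap2e, whose locus carries the AP-2εCre allele. In the OMPCre line the sums overlapped for each list but that of apical neurons, which ran from 986 to 1042 CPM in cKO and from 857 to 953 CPM in controls. Of its 4 genes, 2 were higher at an unadjusted p under 0.05, beside 3.95% of all genes, and 0 were called. At that limit 2 of 7 basal genes were higher, and 2 of 8 immature neuron and progenitor genes and 2 of 7 glia genes were lower. The part of these marker genes in the values below was not tested.

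Among the ephrin-A ligands, Efna3 was higher on average in cKO organs of both lines, but not beyond the adjusted test. Efna3 lies on chromosome 3 (GRCm38, chr3:89313899-89322965, minus strand), 32.8 kilobases from Efna1. In the AP-2εCre line it had 72.2, 71.3 and 67.3 CPM in flox controls, 45.8, 60.6 and 66.5 CPM in heterozygotes and 71.9, 79.4 and 88.4 CPM in cKO. OMPCre-line values were 75.6, 55.7 and 88.2 CPM in flox controls, 77.5, 73.6 and 58.2 CPM in heterozygotes and 78.2, 86.2 and 74.6 CPM in cKO. The highest AP-2εCre values were in cKO, yet the lowest cKO library stood between 2 flox libraries, and in the OMPCre line a flox library was the highest of all. The log2 fold change was 0.32 ± 0.14 (SE) in the AP-2εCre line (edgeR's quasi-likelihood test, adjusted p = 0.454; exact permutation p = 0.083). It was 0.16 ± 0.14 in the OMPCre line (adjusted p = 1) and 0.24 ± 0.10 over both (adjusted p = 0.53). The difference between the 2 effects was 0.16 ± 0.21 (adjusted p = 1). Within the libraries named by letter, 2 cKO and 4 controls a line, the difference of mean log2 CPM was 0.45 in the AP-2εCre line and 0.23 in the OMPCre line. In the libraries named by line, 1 cKO and 2 controls, it was 0.10 and 0.057.

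Efna5 was the most abundant of the 10 genes in CPM and varied little. It spans 277.1 kilobases (chr17:62604184-62881317, minus strand). It had 89.5, 91.7 and 70.3 CPM in AP-2εCre-line flox controls, 77.8, 95.3 and 80.3 CPM in heterozygotes and 94.99, 87.7 and 92.2 CPM in cKO. The OMPCre line gave 83.97, 88.9 and 95.3 CPM in flox controls, 96.4, 91.5 and 86.5 CPM in heterozygotes and 83.1, 87.8 and 97.1 CPM in cKO. All 6 groups overlapped, and the highest library was 1.38 times the lowest, the narrowest range of the 10. Its fold in cKO was 1.09 (95% interval 0.94 to 1.27) in the AP-2εCre line and 0.99 (0.884 to 1.102) in the OMPCre line.

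Efna1 was the lowest of the 3 ephrin-A genes of the set. It lies at chr3:89271733-89281142 on the minus strand. Its level ran from 8.07 to 16.1 CPM over the 18 libraries, a range of 1.99 times. The 3 OMPCre-line flox controls had 13.8, 14.55 and 14.6 CPM, the heterozygotes 10.9, 13.1 and 9.03 CPM and the cKO 12.6, 13.4 and 8.07 CPM. The flox controls thus stood above all other libraries of that line, and this is taken up with the heterozygotes. Its log2 fold change in cKO was -0.060 ± 0.18 in the AP-2εCre line and -0.16 ± 0.20 in the OMPCre line.

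Both ephrin-B ligands overlapped between cKO and controls in both lines. Efnb1 (chrX:99136130-99148991, plus strand) had 40.7 ± 6.44 CPM in AP-2εCre cKO against 34.0 ± 5.50 CPM in its controls, and the log2 fold change was 0.26 ± 0.14 (edgeR's quasi-likelihood test, adjusted p = 0.592). It ran from 0.15 to 0.37 with single libraries left out. The difference of mean log2 CPM was 0.39 within the libraries named by letter and 0.012 within those named by line. OMPCre cKO had 36.9 ± 3.44 CPM and their controls 35.5 ± 3.05 CPM. Efnb2 (chr8:8617434-8661242, minus strand) had 46.7 ± 6.26 CPM in AP-2εCre cKO and 42.5 ± 2.34 CPM in controls. OMPCre-line Efnb2 values were 45.3, 49.8 and 68.9 CPM in flox controls, 44.2, 47.1 and 43.5 CPM in heterozygotes and 48.9, 48.9 and 41.4 CPM in cKO. The third flox library was far above the other 5 controls, and without it the log2 fold change of Efnb2 in OMPCre cKO went from -0.10 to 0.0086.

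None of the 3 EphA receptors passed the test in either line. Epha7 (chr4:28813131-28967499, plus strand) had 18.9, 13.9 and 17.1 CPM in AP-2εCre-line flox controls, 16.8, 17.2 and 20.3 CPM in heterozygotes and 14.5, 13.8 and 15.2 CPM in cKO. A single flox control lay within the cKO values, and the other 5 controls lay above them. OMPCre-line values were 16.4, 17.1 and 15.7 CPM in flox controls, 18.9, 23.2 and 16.1 CPM in heterozygotes and 20.5, 17.3 and 20.7 CPM in cKO. The log2 fold change was -0.26 ± 0.12 in the AP-2εCre line (edgeR's quasi-likelihood test, adjusted p = 0.484; exact permutation p = 0.071) and 0.12 ± 0.13 in the OMPCre line (adjusted p = 1). The difference between these effects was -0.39 ± 0.18 (edgeR's quasi-likelihood test, adjusted p = 1).

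Epha5 spans 362.6 kilobases (chr5:84054761-84417382, minus strand) and had the widest range of the EphA receptors described, from 40.4 to 86.0 CPM, or 2.13 times. It had 55.01, 54.2 and 86.0 CPM in OMPCre cKO, against flox values of 42.96, 41.8 and 53.8 CPM and heterozygote values of 47.3, 53.7 and 70.8 CPM. The third cKO library was the highest of the 18. The log2 fold change in the OMPCre line was 0.33 ± 0.19 (edgeR's quasi-likelihood test, adjusted p = 1) and was 0.080 without that library. In the AP-2εCre line it was -0.076 ± 0.15, and its sign turned with the libraries named by letter alone (0.038) and with heterozygous controls alone (0.0013). Epha4 (chr1:77367185-77515088, minus strand) had 25.8 ± 1.74 CPM in AP-2εCre cKO and 23.9 ± 2.74 CPM in controls, and 22.4 ± 3.40 CPM in OMPCre cKO and 26.8 ± 5.39 CPM in controls. Its log2 fold changes were 0.11 ± 0.11 and -0.26 ± 0.17.

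Among the EphB receptors, Ephb1 had the largest log2 fold change in size of the 10 genes in the OMPCre line. It spans 432.6 kilobases (chr9:101922128-102354693, minus strand), and its counts were the fewest of the 10, with 121 to 548 per library. It had 3.40, 3.83 and 6.53 CPM in OMPCre-line flox controls, 4.52, 4.45 and 4.72 CPM in heterozygotes and 3.59, 2.93 and 3.23 CPM in cKO. The cKO values were low, but a flox control at 3.40 CPM lay among them. The log2 fold change was -0.49 ± 0.22 (edgeR's quasi-likelihood test, adjusted p = 1; exact permutation p = 0.060) and -0.37 without the third flox library. In the AP-2εCre line Ephb1 had 3.15, 3.81 and 2.98 CPM in flox controls, 4.09, 5.23 and 4.64 CPM in heterozygotes and 4.84, 3.92 and 5.58 CPM in cKO, a log2 fold change of 0.26 ± 0.21. With single libraries left out this fold change ran from 0.14 to 0.38. The effects of the 2 lines differed by 0.75 ± 0.30 on the log2 scale (edgeR's quasi-likelihood test, adjusted p = 1). For this difference between lines edgeR called 0.0% of all genes and marked 4.91% at an unadjusted p under 0.05, among them 2 of the 10, Ephb1 and Epha7. DESeq2 also called 0 of the 10, beside 0.0749%, and marked 2, beside 4.25%.

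Ephb2 spans 188.4 kilobases (chr4:136647539-136835988, minus strand). It had 26.6, 30.5 and 23.99 CPM in AP-2εCre-line flox controls, 31.1, 26.1 and 32.5 CPM in heterozygotes and 32.0, 33.9 and 33.1 CPM in cKO. The cKO libraries were high and close together, and a single heterozygote lay among them. The log2 fold change was 0.21 ± 0.10 (edgeR's quasi-likelihood test, adjusted p = 0.525; two-sided exact permutation test over 84 splits, p = 0.048). The permutation p was not adjusted, and the share of all genes that pass that test was not computed. OMPCre cKO had 29.03 ± 0.97 CPM and their controls 27.7 ± 3.05 CPM. The 6 fibroblast genes summed to between 32570 and 40460 CPM in the AP-2εCre cKO and between 17190 and 39340 CPM in the controls. Across the 18 libraries Ephb2 followed the mean log2 level of these genes with Pearson's r = 0.76 (permutation p = 0.00028) and Spearman's rho = 0.69 (permutation p = 0.0018). This was the only relation of 140 between the 10 genes and the 14 marker lists to pass Benjamini-Hochberg adjustment for r (adjusted permutation p = 0.039), and its rho did not (adjusted p = 0.222). Without the 2 libraries farthest from the median of Ephb2 r was 0.58, within the 6 groups it was 0.70 and in the 12 libraries named by letter it was 0.54.

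**Figure D3:**
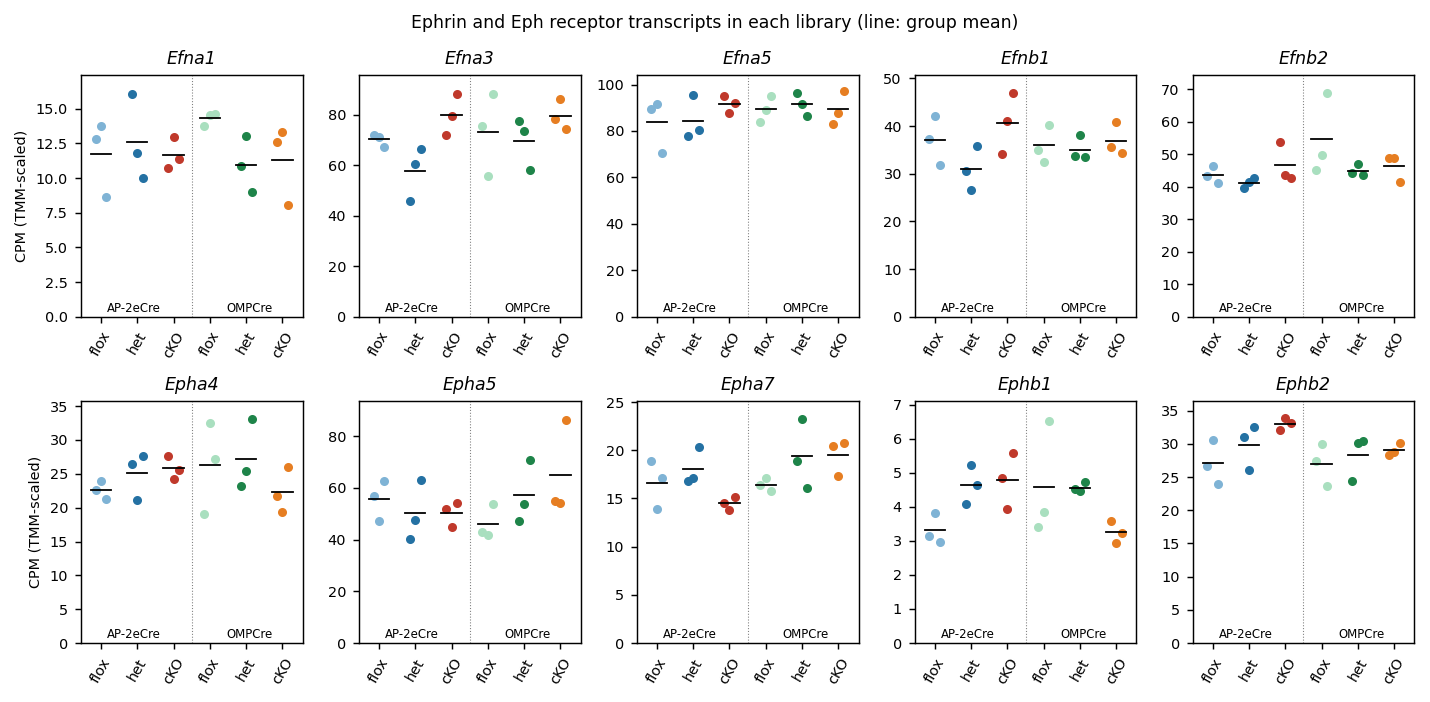
Level of each of the 10 genes in each of the 18 libraries, in CPM after TMM scaling, with 3 points and a bar at the mean for each group and a dotted line between the AP-2εCre and OMPCre lines. In no panel do the 3 cKO points of a line lie all above or all below its 6 control points, and single high points stand out for Efnb2 (68.9 CPM) and Ephb1 (6.53 CPM) in an OMPCre-line flox library and for Epha5 (86.0 CPM) in an OMPCre cKO library.

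The 2 kinds of control were also compared, since the heterozygotes carry the Cre allele and the flox controls do not. Among AP-2εCre controls edgeR's test called 0 of the 10 genes beside 0.0224% of all genes, and marked 0 at an unadjusted p under 0.05 beside 5.18%. DESeq2 called 0, beside 0.72%, and marked 0, beside 5.02%. Heterozygotes and flox controls did not overlap for 2 genes, beside 9.77% of all genes. Efna3 was lower in all 3 heterozygotes (57.6 ± 10.7 CPM) than in all flox controls (70.3 ± 2.61 CPM), and Ephb1 was higher in all 3 (4.65 ± 0.57 CPM against 3.31 ± 0.44 CPM). The log2 fold change of Ephb1 was 0.49 ± 0.22 (adjusted p = 0.961). The 7 basal neuron genes summed to between 398 and 691 CPM in these heterozygotes and between 732 and 877 CPM in the flox controls, with 7 of 7 fold changes below 0 (median log2 -0.49) and 3 lower at an unadjusted p under 0.05. These genes include Tfap2e, whose locus carries the Cre allele, and their part in the values of Efna3 and Ephb1 was not tested. With 3 against 3 libraries the exact permutation test cannot go below 0.1.

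Among OMPCre controls the test called 0 of the 10 beside 0.0441% of all genes and marked 1, Efna1, beside 5.54%, while DESeq2 called 0, beside 0.597%, and marked 1, beside 5.35%. Efna1 was lower in all heterozygotes (10.98 ± 2.02 CPM) than in all flox controls (14.3 ± 0.45 CPM), with a log2 fold change of -0.38 ± 0.16 (edgeR's quasi-likelihood test, adjusted p = 0.876). It was the only one of the 10 without overlap, beside 11.6% of all genes. The 4 apical neuron genes summed to between 899 and 953 CPM in these heterozygotes and between 857 and 875 CPM in flox controls, with 1 higher at an unadjusted p under 0.05. All 6 fibroblast genes had fold changes above 0 (median log2 0.36), 0 of them at that limit, and their sums overlapped. The part of either list in the value of Efna1 was not tested. Between the 6 controls of the AP-2εCre line and the 6 of the OMPCre line, 0 of the 10 were called beside 0.0949% of all genes. Efnb2 alone had an unadjusted p under 0.05, beside 6.57% of all genes, and its libraries overlapped between the lines, as did those of the other 9 genes, beside 0.491% of all genes that did not. DESeq2 called 0, beside 0.507%, and marked 1, beside 5.67%. Efnb2 had 42.5 ± 2.34 CPM in the AP-2εCre line and 49.8 ± 9.62 CPM in the OMPCre line, a log2 difference of -0.23 ± 0.11, which became -0.12 without the high flox library. For AP-2εCre against OMPCre controls 5 of 5 cilia genes had fold changes above 0 and 3 of them an unadjusted p under 0.05, and 6 of 6 mural and smooth muscle genes had fold changes below 0 (median log2 -0.19), with 1 at that limit. Fold changes were above 0 for 6 of 6 fibroblast and 6 of 7 gland genes (median log2 0.15 and 0.30). The same held for 5 of 6 sustentacular and 5 of 6 cartilage and bone genes (0.24 and 0.35), with 1 of each at that limit. Of 3 blood genes, 2 were lower at that limit, the sums of all lists overlapped, and the part of these genes in the value of Efnb2 was not tested.

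The members also differ in which transcripts the reads were assigned to. Of 51 annotated transcripts of the 10 genes, 24 held at least 10% of their gene's TPM in controls. The exons below are shown because they separate the main coding transcripts of 4 members. The sequences were read from the GENCODE vM21 transcripts of GRCm38, 5′ to 3′ on the gene's strand, with the exon or bases that differ in capitals and the joined neighbouring exons in lower case. For Efna5, Efnb2 and Epha5 the capitals are the exon at chr17:62613316-62613396, chr8:8623148-8623240 and chr5:84117561-84117626, all coding and all on the minus strand.
Efna5-201: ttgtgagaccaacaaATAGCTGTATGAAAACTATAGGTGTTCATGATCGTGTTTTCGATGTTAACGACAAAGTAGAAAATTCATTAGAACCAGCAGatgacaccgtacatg
Efnb2-201: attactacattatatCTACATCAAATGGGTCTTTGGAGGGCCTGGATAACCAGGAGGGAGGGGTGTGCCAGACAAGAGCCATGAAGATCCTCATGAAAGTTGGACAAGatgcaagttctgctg
Epha5-203: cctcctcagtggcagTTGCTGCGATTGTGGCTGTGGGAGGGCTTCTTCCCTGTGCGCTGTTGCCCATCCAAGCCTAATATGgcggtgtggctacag
Epha7-202: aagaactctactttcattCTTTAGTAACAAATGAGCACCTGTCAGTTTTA

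The Efna5 exon is 81 bases long, a multiple of 3, so its loss keeps the reading frame. Efna5-201, which holds it, took 76.4 ± 8.39% (SD, n = 12) of the gene's TPM in controls and Efna5-202, which skips it, 23.6 ± 8.39%. Over the 12 controls the share of Efna5-201 ran from 58.8% to 88.2%. The model of Efna5-202 is only 643 bases long against 4032 for Efna5-201, so its 3.25% of the gene's counts became a larger share of TPM. The Efnb2 exon is 93 bases long and also a multiple of 3. Efnb2-201, which holds it, took 63.1 ± 13.9% of TPM and 94.6% of counts, and Efnb2-202, a partial model of 652 bases without it, took 36.9 ± 13.9% of TPM with 5.35% of counts.

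Epha5 had 3 coding transcripts above 10% of its TPM. Epha5-203, with 3018 coding bases, took 36.7 ± 4.26% of TPM, Epha5-204, with 2457, took 39.5 ± 4.96% and Epha5-201, with 2628, took 15.02 ± 2.65%. Epha5-203 alone of these holds 2 exons (chr5:84237399-84237554 and chr5:84233583-84233918) with 492 bases together, and Epha5-204 also lacks the exon of 66 bases shown above. In controls these shares had SDs of at most 4.96 percentage points, against 14.6 for Epha7-201 and 13.5 for Ephb2-201. In Epha7 the full-length Epha7-201, with 2994 coding bases, took 52.4 ± 14.6% of TPM, and the noncoding Epha7-206, of 648 bases, 20.3 ± 11.5%. Epha7-202 took 12.4 ± 6.63% and has 1830 coding bases, because it ends in an exon of its own, of which the last coding stretch of 32 bases (chr4:28946219-28946250) is in capitals above. Forms of EphA7 that are cut short and lack the kinase part are known.

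Transcripts of Ephb2 also differ by a single codon. At the start of exon 7 of 16 Ephb2-201 holds 3 bases more than Ephb2-202 (chr4:136675531-136675533), shown in capitals beside the same junction of Ephb2-202.
Ephb2-201: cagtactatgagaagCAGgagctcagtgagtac
Ephb2-202: cagtactatgagaaggagctcagtgagtac
Ephb2-201 took 47.2 ± 13.5% of the gene's TPM in controls, Ephb2-203 17.8 ± 12.1% and Ephb2-202 11.4 ± 2.41%. Their annotated ends differ too, so the reads that set these shares need not cross the codon. Ephb2-205, a retained-intron model of 599 bases, took 18.5 ± 17.3% of TPM with 2.0% of counts.

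No transcript of the 10 genes was called in cKO. For AP-2εCre 30 of the 51 were tested at transcript level and edgeR called 0, beside 0.0% of all transcripts, with 2 at an unadjusted p under 0.05, beside 4.84%. For OMPCre 31 were tested and 0 called, beside 0.00337% of all transcripts, with 0 at an unadjusted p under 0.05, beside 2.53%. DESeq2 called 0 of them in both lines, beside 1.22% and 0.977% of all transcripts, and marked 5 and 1, beside 6.14% and 4.3%. Of the 24 shares of TPM, 0 differed between cKO and controls at p under 0.05 in the two-sided exact permutation test in either line, the lowest p being 0.095. Of the 2 AP-2εCre transcripts at an unadjusted p under 0.05, Efna3-201, the main coding transcript of its gene, had a log2 fold change of 0.32 ± 0.13 in AP-2εCre cKO (edgeR's quasi-likelihood test, adjusted p = 1). The other, the noncoding Ephb1-204, was assigned 21, 31 and 21 estimated counts in flox controls of that line, 0, 72 and 0 in heterozygotes and 0 in each cKO library, so that cKO and 2 heterozygotes shared the value 0 (adjusted p = 1).

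Some shares cannot be read as splicing. Epha4-201 and Epha4-205 differ by only 13 bases and have the same number of coding bases, 2958. In the controls they took 35.1 ± 32.2% and 39.2 ± 36.95% of the gene's TPM, and Epha4-201 was at 0 in 4 of the 12 control libraries. Efna3-202, a noncoding model of 454 bases, took 28.3 ± 15.9% of TPM with 4.35% of the counts. Efna3 ranked highest of the set in CPM per kilobase too, a measure that uses Efna3-201 alone for the length.

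**Figure D4:**
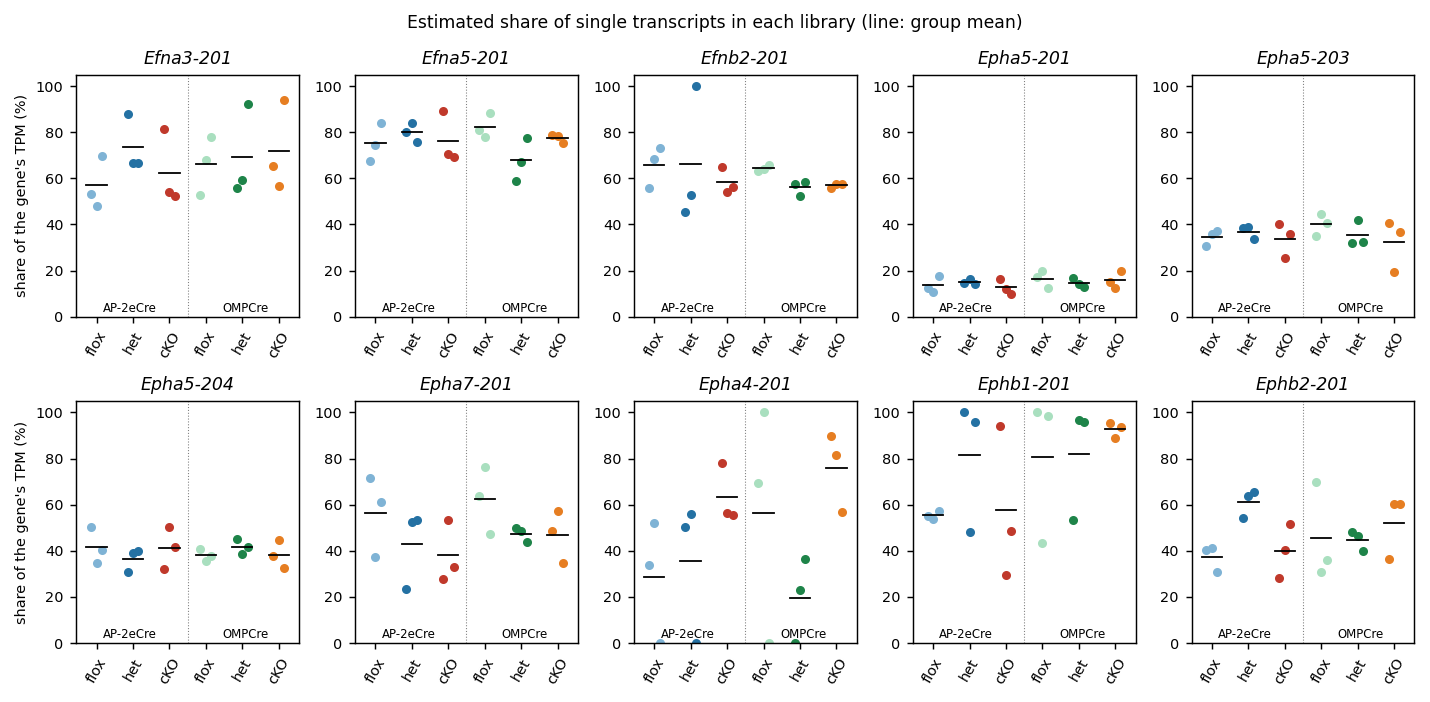
Share of the gene's TPM assigned to 10 transcripts in each of the 18 libraries, in percent, with 3 points and a bar at the mean for each group. The share of Epha5-203 runs from 19.5% to 44.4% and that of Epha5-204 from 30.7% to 50.2%, while Epha4-201 spreads from 0 to 100% between libraries of the same group.

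The 10 genes varied between control libraries of the same group by an SD of 0.14 to 0.26 on the log2 scale. For 9 of the 10 this SD was above the median of all genes within 1.5 times of its level, and for Ephb1 (0.23 against 0.25) it was below. Epha5 was at percentile 87.4 of genes of like level, Efna3 at percentile 85.8 and Epha4 at percentile 82.0. Efna5, at percentile 54.3, was close to the middle.

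Of the 45 pairs among the 10 genes, 2 were related across the 18 libraries after Benjamini-Hochberg adjustment. Efna1 and Epha5 ran in opposite directions, with Pearson's r = -0.82 (permutation p = 4e-05, adjusted p = 0.0018) and Spearman's rho = -0.73 (permutation p = 0.00096, adjusted p = 0.027). Within the 6 groups r was -0.82, and without the 2 libraries farthest from the median of Efna1 it was -0.72. The relation was weaker within each series of library names. It was -0.54 in the 12 libraries named by letter (permutation p = 0.069) and -0.76 in the 6 named by line (exact permutation p = 0.074), so it did not pass within either. Libraries named by line had more Epha5 (median 62.8 CPM, 52.0 to 86.0) than those named by letter (median 47.4 CPM, 40.4 to 57.0), and less Efna1 (median 9.50 CPM against 13.02 CPM).

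Efna3 and Efnb1 ran together, with r = 0.72 (permutation p = 0.0007, adjusted p = 0.016) and rho = 0.72 (permutation p = 0.0012, adjusted p = 0.027). Without the 2 libraries farthest from the median of Efna3 r was 0.73, within groups it was 0.57, in the libraries named by letter 0.72 (permutation p = 0.0077) and in those named by line 0.74 (exact permutation p = 0.11). The other 43 pairs did not pass, and the median r over all pairs was 0.049.

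**Figure D5:**
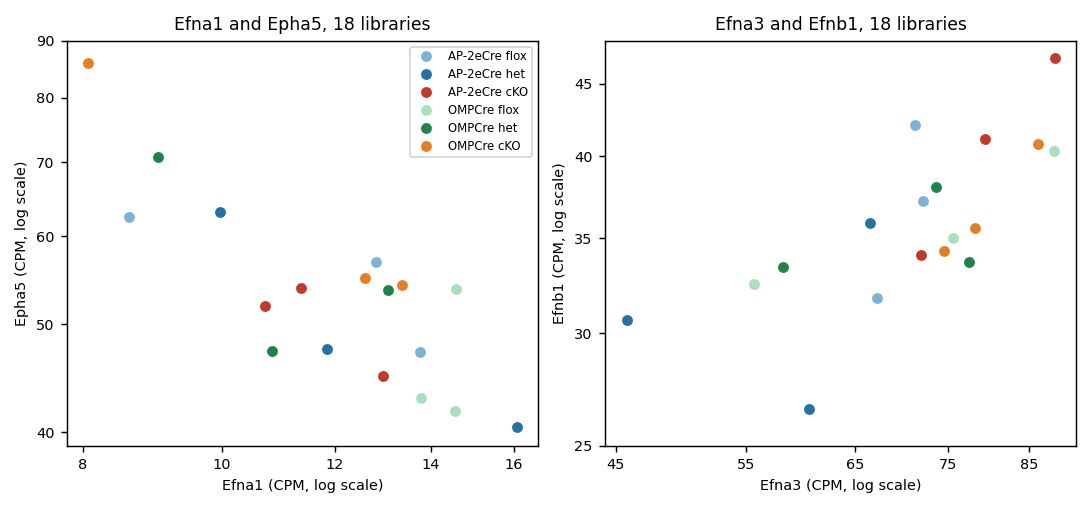
CPM of Epha5 against Efna1 (left) and of Efnb1 against Efna3 (right) in the 18 libraries, both axes on a log scale, with a colour for each of the 6 groups. Epha5 is lower where Efna1 is higher (r = -0.82), Efnb1 is higher where Efna3 is higher (r = 0.72), and points of all groups lie along both trends.

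Outside the family, the genes with the most similar profile were sought among 15775 genes with a mean of at least 1 CPM, by Pearson's r of log2(CPM + 1) over the 18 libraries. These are the highest of 15775 values and are given as a description. For Efna3 they were Sept5 (r = 0.94) and Lhx2 (r = 0.93), Lhx2 being a LIM-homeobox factor of olfactory neurons. For Efna1 they were Eif4e (0.87) and Golga7 (0.87), for Efna5 Gdap2 (0.78) and Spin1 (0.76), for Efnb1 Ppp1r9b (0.85) and Ubl7 (0.82), and for Efnb2 Rnf227 (0.85) and Ckm (0.85). For Epha4 they were Syne3 (0.79) and Mcl1 (0.79), for Epha5 Mapkbp1 (0.88) and Hpse2 (0.87), and for Epha7 Ubl3 (0.76) and Map3k19 (0.74). For Ephb1 they were Sgpl1 (0.80) and Bub1b (0.79) and for Ephb2 Scara3 (0.89) and Dkk3 (0.88). For Efnb2, leaving out 2 libraries lowered the values to 0.63 and 0.66, while for Efna3 they stayed at 0.88 and 0.85.

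The rest of the family gave no call either. Of the 12 other ephrin and Eph genes, 10 passed the filter on low counts in the AP-2εCre comparison and 11 in the OMPCre comparison, and edgeR called 0 in each, beside 0.0378% and 0.0% of all genes, with 0 at an unadjusted p under 0.05, beside 10.2% and 3.95%. Epha1 had 10.5 ± 2.67 CPM in AP-2εCre cKO and 13.1 ± 4.29 CPM in controls, and 10.8 ± 1.87 CPM in OMPCre cKO and 15.1 ± 5.62 CPM in controls. Efnb3, the third ephrin-B, had 9.39, 8.13 and 9.70 CPM in OMPCre heterozygotes and 6.30, 4.27 and 6.08 CPM in flox controls, with no overlap, as for 11.6% of all genes. Its log2 fold change there was 0.71 ± 0.19 (edgeR's quasi-likelihood test, adjusted p = 0.716). In OMPCre cKO, which carry the same Cre allele, it had 5.70, 6.78 and 5.28 CPM.

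Downstream, 53 genes that pass Eph and ephrin signals on or end them were tested in each comparison, and edgeR called 0 of them in all 7. For AP-2εCre 6 were higher and 0 lower at an unadjusted p under 0.05, beside 10.2% of all genes, a share near that of the list, and the median log2 fold change was 0.066 over the 53. The 3 genes of forward signalling among them, out of 33, included Itsn1, an exchange factor for Cdc42 that EphB receptors use (69.7 against 58.0 CPM, log2 fold change 0.27 ± 0.070, adjusted p = 0.308), and Limk1, a kinase that acts on cofilin (16.6 against 13.5 CPM, adjusted p = 0.347). Among the 9 genes of reverse signalling Grip1, a PDZ protein that binds ephrin-B tails, was among them (29.3 against 23.9 CPM, adjusted p = 0.427). Among the 11 genes of shedding and silencing Mmp9, a matrix protease, had 272 ± 39.96 CPM in cKO and 203 ± 33.3 CPM in controls (log2 fold change 0.42 ± 0.14, adjusted p = 0.368). None of these passed the adjusted test.

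For OMPCre 1 of the 53 was higher and 0 lower at an unadjusted p under 0.05, beside 3.95% of all genes, with a median of -0.0051. It was Kalrn, an exchange factor for Rac that EphB receptors use in dendritic spines, with 72.5 ± 13.95 CPM in cKO and 58.7 ± 6.12 CPM in controls (log2 fold change 0.30 ± 0.12, adjusted p = 1). Mmp9 had 200 ± 28.5 CPM in OMPCre cKO and 239 ± 32.6 CPM in controls, and its 2 effects differed by 0.68 ± 0.20 (edgeR's quasi-likelihood test, adjusted p = 0.982). Over both lines the log2 fold change of Kalrn was 0.27 ± 0.080 (edgeR's adjusted p = 0.312) and Anks1b, an adaptor that binds Eph receptors, 0.35 ± 0.12 (adjusted p = 0.41).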

How the data were processed

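Whole-VNO mRNA-seq of 18 assigned libraries was used. RNA was prepared with a directional polyA+ kit and sequenced as single reads of 75 bases. The submitters' processing notes name Salmon 0.14.0, DESeq2 1.22.2 and the build GRCm38. The authors deposited, for 116248 transcripts, the estimated count, which need not be whole, and the TPM. Whether Salmon used strand is not given in the sources used here. The deposited files also hold an effective length, which was used only for CPM per kilobase.

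GENCODE vM21 paired 116072 transcripts with genes. No gene was found for 176, with up to 0.0324% of counts in any library, and these were dropped. Counts were added per gene and rounded. edgeR 4.0.16 in R 4.3.3 gave TMM CPM and, after filterByExpr, a quasi-likelihood test, adjusted by Benjamini-Hochberg over every gene tested, and genes were called at an adjusted p under 0.05. The unadjusted p, adjusted p and interval printed with a single fold change are edgeR's, two-sided. Counts given for DESeq2 rest on its own p. DESeq2 1.42.0 was an alternative. The cKO were compared with both kinds of control of their line, as in the study. Permutation tests are two-sided, over all 84, 20 or 924 splits (smallest p 0.012, 0.1 and 0.0022), or over 100000 resamples for correlations. Within each line, edgeR's quasi-likelihood test of cKO against controls was also run on simulated data. No rate of recovery or of false calls is given here, so that run does not measure power for effects of the size reported.

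The members and all lists were chosen with earlier results of these data known, and the correlations among members and with marker lists were added after the data were seen. Named are all 10 members, any called gene and the 2 genes most like each member. Transcripts with at least 10% of a gene's TPM are named in part. So are the 2 genes of each family or signalling list with the smallest p per comparison. The libraries are labelled biological replicates, and p-values measure the spread between them. The library series is read from the form of library names, 2 libraries named by letter and 1 named by line in each group. Other settings were DESeq2, its size factors in edgeR, low-count filters, length-scaled TPM, either control alone, the library series, a replicate block, and each library left out. One stretch of sequence is not reported here.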

Additional observations from a re-analysis of the deposited data

Results flagged for a closer look

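Efnb2 in the third OMPCre-line flox library, at 68.9 CPM, stood far from the other 5 controls of that line (43.5 to 49.8 CPM), beyond the gap that Dixon's test allows at 95%. It was the only such value among 20 sets of 6 controls (10 genes in 2 lines), where chance flags about 1 in 20 sets. The same library had the highest Ephb1 of the 18 (6.53 CPM).

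The AP-2εCre library with conflicting labels, which entered no comparison, had 33.0 CPM of Ephb2, above the 6 controls of its line (24.1 to 32.4 CPM) and within the 3 cKO (32.2 to 33.9 CPM), when all 19 libraries were normalised together.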

How the results depend on the processing

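The count of called members was 0 of 10 in all 7 comparisons under all 62 fits with another setting and all 78 fits without 1 library, with adjusted p from 0.374 and 0.314 upwards. The value 0.374 is DESeq2's, for Efna3 in AP-2εCre cKO. The count of called member transcripts was 0 in both lines with DESeq2, with at least 10 counts in every library, with the replicate block and without each library. Of 620 log2 fold changes under another setting, 27 changed sign, none of a called gene, and the cause was not tested. With the libraries named by letter alone, the log2 fold change was Epha5 0.038 in AP-2εCre cKO, Efnb2 0.073 in OMPCre cKO, Efna5 -0.029 in cKO of both lines, Efna1 -0.16, Efnb2 -0.063 in the difference between the cKO effects, Efna5 -0.063 in AP-2εCre heterozygotes, Efna3 0.20, Efnb1 0.087, Epha4 -0.081, Ephb1 0.31, Ephb2 -0.072 in OMPCre heterozygotes, Efna1 0.064, Ephb1 0.010 in the line controls. With heterozygous controls alone, the log2 fold change was Epha5 0.0013 in AP-2εCre cKO, Efna1 0.053, Efnb2 0.051 in OMPCre cKO. With counts from length-scaled TPM, the log2 fold change was Ephb2 -0.18 in OMPCre cKO, Epha7 0.00042 in cKO of both lines, Efna5 -0.047, Efnb2 0.051, Epha4 -0.013, Ephb2 -0.45 in AP-2εCre heterozygotes, Ephb2 -0.076 in OMPCre heterozygotes, Epha4 0.089, Ephb2 -0.070 in the line controls. With the library series as a covariate, the log2 fold change was Ephb1 0.052 in OMPCre heterozygotes. With the replicate number as a block, the log2 fold change was Ephb1 0.054 in OMPCre heterozygotes. Leaving out 1 library at a time turned 32 of 780 values. In AP-2εCre cKO the range was -0.14 to 0.036 for Efna1. In AP-2εCre heterozygotes the range was -0.10 to 0.25 for Efna1, -0.10 to 0.079 for Efna5. In the line controls the range was -0.15 to 0.025 for Efna1, -0.025 to 0.14 for Epha5, -0.10 to 0.041 for Epha7, -0.0038 to 0.082 for Ephb2. In OMPCre cKO the range was -0.29 to 0.039 for Efna1, -0.081 to 0.024 for Efna5, -0.023 to 0.11 for Efnb1, -0.15 to 0.0086 for Efnb2. In the difference between the cKO effects the range was -0.10 to 0.23 for Efna1. In OMPCre heterozygotes the range was -0.23 to 0.089 for Efna3, -0.0091 to 0.083 for Efna5, -0.10 to 0.055 for Efnb1, -0.13 to 0.24 for Epha4, -0.18 to 0.34 for Ephb1, -0.016 to 0.16 for Ephb2. In cKO of both lines the range was -0.053 to 0.076 for Efnb2, -0.0095 to 0.19 for Epha5. 

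The replicate numbers were not taken to pair the libraries, since not every same-numbered pair had a correlation of deviations over 0.1. These ran from -0.31 to 0.19 in the AP-2εCre line (mean -0.084, against 0.043 for different numbers). They ran from 0.051 to 0.53 in the OMPCre line, where all 9 were above 0 (mean 0.25, against -0.12). In that line the third library of each group was also the one named by line. Pairs of the same series had means of 0.084 in the AP-2εCre line and 0.18 in the OMPCre line. Pairs of different series had means of -0.10 and -0.22. With the replicate block 0 of 10 members were called in each comparison. In each setting's own order of levels, 6 to 8 of 9 neighbouring pairs passed the test, with 6 in CPM per kilobase and in flox controls alone, where 8 of the 9 original pairs were in the same order. The genes most like a member depended on the measure, and with values centred within groups the 2 highest held a named gene for 3 of 10 members. At 121 to 548 per library Ephb1 had the fewest counts of the 10 members, and how far depth limits its precision was not tested.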

Other observations

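The AP-2εCre library whose title names a heterozygote and whose genotype names a cKO held 8 of the 10 genes within the range of the 6 controls of its line. Ephb2 was above that range, and Efnb1, at 26.6 CPM, was just below it. Its Efna3 level was 64.8 CPM, below the 3 cKO (72.4 to 88.4 CPM), and its Epha7 level was 20.3 CPM, above them (13.8 to 15.2 CPM). Its Efna5 level was 95.6 CPM, its Epha5 level 59.3 CPM and its Ephb1 level 4.70 CPM.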
